A study of Mus musculus with 12 samples.

Results

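The pyruvate dehydrogenase complex and the enzymes that switch it off and on were examined as 10 genes. They comprise the 4 subunit genes Pdha1, Pdhb, Dlat and Pdhx, the 4 inhibitory kinases Pdk1, Pdk2, Pdk3 and Pdk4, and the 2 activating phosphatases Pdp1 and Pdp2. The members were chosen by symbol, each matched through its Ensembl identifier in GENCODE mouse release M21 (GRCm38) to 1 of the 26921 genes of the deposited count table, and all 10 were found. RNA sequencing was performed on the left ventricle of 16-week-old mice, with 6 WT and 6 cmGch1 KO libraries, each from a single animal. The study asked what the loss of tetrahydrobiopterin synthesis in cardiomyocytes does to cardiac gene expression and metabolism. Both genotypes were Gch1 flox/flox littermates, with loxP sites on either side of the exons for the active site of GTP cyclohydrolase. WT mice had no Cre, and cmGch1 KO mice carried in addition a heterozygous Cre transgene under the α-myosin heavy chain (α-MHC) promoter, so the deletion and the presence of Cre cannot be told apart here. Mice with Cre and unfloxed Gch1 were not analysed here. The α-MHC promoter acts in cardiomyocytes, while the ventricular tissue also holds endothelial cells, fibroblasts, smooth muscle cells and macrophages.

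Pyruvate dehydrogenase sits in the mitochondrial matrix and turns pyruvate into acetyl-CoA, the irreversible step by which carbohydrate enters the tricarboxylic acid cycle. Pdha1 and Pdhb encode the alpha and beta chains of the decarboxylating component, Dlat encodes the acetyltransferase that forms the core, and Pdhx encodes the protein that ties the shared lipoamide dehydrogenase (Dld) to that core. The kinases phosphorylate the alpha chain and stop the enzyme, and the phosphatases remove the phosphate and restart it. The heart normally burns mostly fatty acids, and Pdk4, which rises with fasting and with activators of the PPAR nuclear receptors, is known as a brake on glucose oxidation in this tissue. Pdk2 is the widely expressed kinase, Pdk1 is a known target of the hypoxia-inducible factor HIF, and Pdk3 is mainly known from testis, kidney and brain.

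The promoters of Pdk1, Pdk2 and Pdk4 are shown because the first 2 genes had no overlap between genotypes and Pdk4 varied most between libraries. Each sequence is from RefSeq on GRCm38.p6, runs 5′ to 3′ on the strand of the gene, and holds 250 bases before and 50 bases from the start site. Capitals mark a motif that was searched for, as given below. The Pdk1 promoter is chr2:71872974-71873273 on the plus strand, the Pdk2 promoter is chr11:95041322-95041621 on the minus strand, and the Pdk4 promoter is chr6:5496229-5496528 on the minus strand.
Pdk1: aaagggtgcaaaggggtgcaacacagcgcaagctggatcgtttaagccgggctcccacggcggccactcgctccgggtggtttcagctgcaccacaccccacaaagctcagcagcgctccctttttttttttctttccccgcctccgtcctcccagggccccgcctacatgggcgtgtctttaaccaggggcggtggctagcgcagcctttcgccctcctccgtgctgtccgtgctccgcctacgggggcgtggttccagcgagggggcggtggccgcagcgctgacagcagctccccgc
Pdk2: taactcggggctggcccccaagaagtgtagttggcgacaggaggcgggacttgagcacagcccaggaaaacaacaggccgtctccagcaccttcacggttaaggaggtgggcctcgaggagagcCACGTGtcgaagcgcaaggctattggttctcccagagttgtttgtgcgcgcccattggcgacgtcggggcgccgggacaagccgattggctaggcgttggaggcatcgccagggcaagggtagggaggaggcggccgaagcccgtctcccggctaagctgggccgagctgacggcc
Pdk4: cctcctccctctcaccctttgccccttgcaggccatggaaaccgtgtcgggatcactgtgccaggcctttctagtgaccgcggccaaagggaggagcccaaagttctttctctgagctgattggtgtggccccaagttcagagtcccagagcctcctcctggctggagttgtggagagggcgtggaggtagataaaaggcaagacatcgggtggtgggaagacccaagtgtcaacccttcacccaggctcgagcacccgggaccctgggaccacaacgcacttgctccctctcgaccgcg

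A promoter was found in the RefSeq table for 9 of the 10 members, with a second start site for Pdk1 and for Pdk2. Each was searched on both strands for 4 short motifs. The E-box, spelled CACGTG and bound by clock factors among others, was found at position -126 in the Pdk2 promoter above and at -219 in that of Pdp2, counted from the start site. It is present in 7.15% of the 32851 promoters of 300 bases. Of the core of the HIF sites only the spelling ACGTG, contained in every E-box of this form, was searched. It was found besides in the promoters of Pdhb and Pdk3, and is present in 19.6% of all promoters. The other spelling of this core, GCGTG, was not searched, and the Pdk1 and Pdk4 promoters above hold these letters. The forkhead motif, spelled GTAAACA, is present in 3.65% of all promoters and was found in no promoter of a member. The nuclear receptor motif, spelled AGGTCA, is present in 16.3% of all promoters and was found in no promoter of a member either. A missing match says only that these letters are not in this window.

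The 6 WT libraries held between 22356463 and 37917806 counts, and the 6 cmGch1 KO libraries between 19921398 and 35480715. Gch1 (GTP cyclohydrolase), the deleted gene, measured 10.7 ± 0.979 cpm in WT against 5.51 ± 0.859 cpm after deletion (mean ± SD, n = 6 each), 51.4% of WT, with no overlap between the genotypes. Here cpm, the usual rate of counts relative to library size, were scaled by edgeR's TMM factors. cmGch1 KO replicates 2 and 3 stood apart: they had high Xist (94.1 and 106 cpm by library size, against at most 0.236 elsewhere), no counts of 4 Y-linked genes, and 14.9% and 16.1% mitochondrial counts against 18.3% to 22.9% in the others. No WT library was of that kind, and every other library had at least 4003 counts of those 4 Y-linked genes. By these counts replicates 2 and 3 were from females and the others from males, so sex was not balanced between genotypes. The labels give no sex, and the paper used both sexes unless stated otherwise. Cardiomyocyte markers (5 genes) summed to between 45258 and 49314 cpm in WT and between 39998 and 47935 cpm in cmGch1 KO, and none of the 5 had an unadjusted p under 0.05 by edgeR, while Tnnt2 had an exact permutation p of 0.0346. The 5 macrophage markers summed to between 157 and 257 cpm in WT and between 196 and 303 in cmGch1 KO. At an unadjusted p under 0.05 by edgeR 4 of them were higher, against 7.01% of all tested genes, and none after adjustment. Smooth muscle Acta2 (log2 fold change 0.66) and atrial Nppa (1.53) passed the adjusted threshold, but their lists were mixed. The 5 smooth muscle and pericyte markers had a median of 0.12, with 2 below 0 (Myh11 at -0.24 and Rgs5 at -0.06). The 4 atrial markers had a median of 0.14, with 1 below 0 (Sln at -0.36). The 5 endothelial and 5 fibroblast markers had medians of 0.04 and 0.12, adipocyte markers summed to at most 3.12 cpm and nerve and glia markers to at most 8.93 cpm. Of 2 tested skeletal muscle markers none passed. Acta1 was at 0.78 (unadjusted p = 0.00251 and adjusted p = 0.118 by edgeR) and Ckm at -0.06.

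Of the 10 members, 9 passed the expression minimum (cpm over 3 in at least 6 libraries) and were tested among 11225 genes by edgeR's quasi-likelihood test. None passed an FDR of 0.05 in either direction, where 0.445% of all tested genes were called lower and 0.677% higher in cmGch1 KO. At an unadjusted p under 0.05, 3 members were lower (Pdk1, Pdk2 and Pdp2) and 0 higher, against 4.51% and 7.01% of all tested genes. The log2 fold change was below 0 for 8 of the 9, with Pdk4 the exception, against 53.3% of all tested genes. The median was -0.10 over the members and -0.01 over all tested genes. With DESeq2 on the same genes, 2 members (Pdk1 and Pdk2) were called lower, where 1.38% of all genes were. With 1 surrogate variable as a covariate in edgeR 3 were (Pdhb, Pdk1 and Pdk2), where 2.95% of all genes were.

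**Figure D1:**
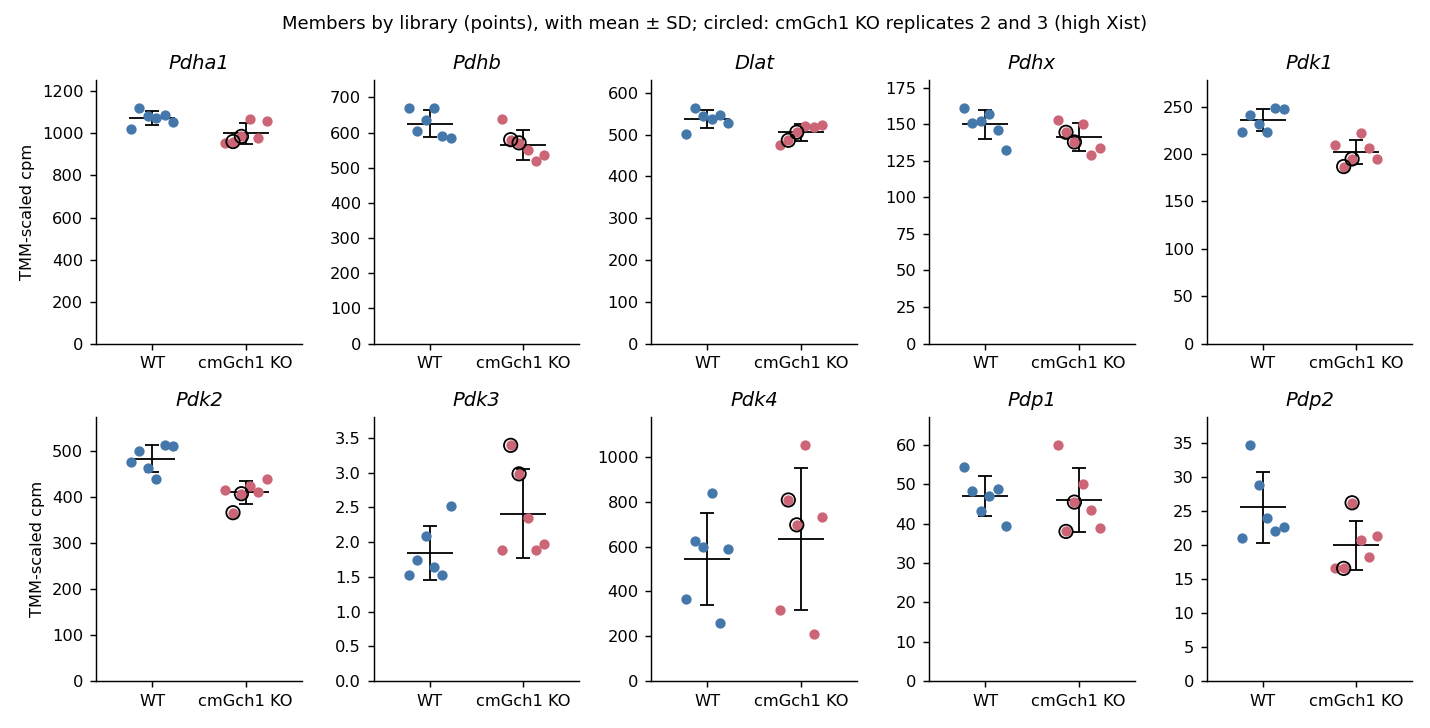
Level of each member in TMM-scaled cpm, by genotype. Each point is 1 library (6 WT, 6 cmGch1 KO), lines and bars give the mean ± SD, and circles mark cmGch1 KO replicates 2 and 3. All cmGch1 KO points lie below all WT points for Pdk1 and Pdk2, and Pdk4 spreads widely in both genotypes.

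The subunit genes were abundant, and each was a little lower on average in cmGch1 KO. Pdha1 (ENSMUSG00000031299, chrX:160122209-160138413), the alpha chain that the kinases phosphorylate, ranged in WT from 1020 to 1121 cpm with a median of 1080. In cmGch1 KO it ranged from 955 to 1069 cpm with a median of 983. All 6 cmGch1 KO libraries were below the WT median and 4 were below the lowest WT library, but the genotypes overlapped. The log2 fold change was -0.10 (SE 0.057, 95% interval -0.22 to 0.02), with an adjusted p of 0.556 by edgeR. The exact permutation test of the means gave an unadjusted two-sided p of 0.0195, which was 0.0762 without replicates 2 and 3 and 0.565 with library size alone as the scaling. Pdha1 overlaps exons of Map3k15 on the opposite strand, which had at most 73 counts where Pdha1 had at least 20680. As in any bulk tissue, less RNA per cell and fewer cells of the type that makes it cannot be told apart. The summed cardiomyocyte markers had a median of 48863 cpm in WT against 44519 cpm in the knockouts, and their part in the lower values of the members was not tested.

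Pdhb (ENSMUSG00000021748, chr14:8165996-8173025), the beta chain, ranged from 584 to 670 cpm in WT with a median of 619. It ranged from 520 to 640 cpm in cmGch1 KO with a median of 560. In cmGch1 KO 5 libraries lay below the lowest WT library, and replicate 1 was as high as WT. This was a log2 fold change of -0.14 (SE 0.067, 95% interval -0.29 to 0.00021), with an adjusted p of 0.434 by edgeR and an exact permutation p of 0.0346. That permutation p was 0.0714 without replicates 2 and 3 and 0.245 with library size alone. With 1 surrogate variable the adjusted p was 0.021 by edgeR.

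Dlat (ENSMUSG00000000168, chr9:50634633-50659780), the core acetyltransferase, ranged from 502 to 564 cpm in WT with a median of 541. It ranged from 476 to 523 cpm in cmGch1 KO with a median of 512. All cmGch1 KO libraries were below the WT median, but only 2 were below the lowest WT library. On the log2 scale the difference was -0.09 (SE 0.055), with an adjusted p of 0.607 by edgeR and an exact permutation p of 0.0238, which was 0.0905 without replicates 2 and 3 and 0.781 with library size alone. Pdhx (ENSMUSG00000010914, chr2:103021075-103073513), the binding protein of the core, had a median of 152 cpm in WT (133 to 161) and of 141 cpm in cmGch1 KO (129 to 153). Its log2 fold change was -0.09 (SE 0.065), with an adjusted p of 0.706 by edgeR and an exact permutation p of 0.149, and the genotypes overlapped widely.

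To set genes beside each other, cpm were divided by the joint length of all annotated exons of the gene in kilobases. The transcript that is expressed can be shorter, so ratios, orders and shares between genes depend on this choice. On this scale the 4 subunits summed to between 575 and 611 in WT, with a median of 599, and to between 536 and 574 in cmGch1 KO, with a median of 554. The genotypes did not overlap in this sum. They overlapped when the same counts were scaled by library size alone, with 561 to 601 in WT and 537 to 587 in cmGch1 KO. That scaling moved each subunit's log2 fold change towards 0, to between -0.07 (Pdhb) and -0.01 (Pdhx), and moved the median of all tested genes from -0.01 to 0.07. The proportions within the complex were alike. Pdha1 stood at 1.78 ± 0.142 times Pdhb in WT and 1.84 ± 0.195 times in cmGch1 KO, and Dlat at 2.89 ± 0.238 and 2.89 ± 0.277 times Pdhx (n = 6 each, levels per kilobase).

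**Figure D2:**
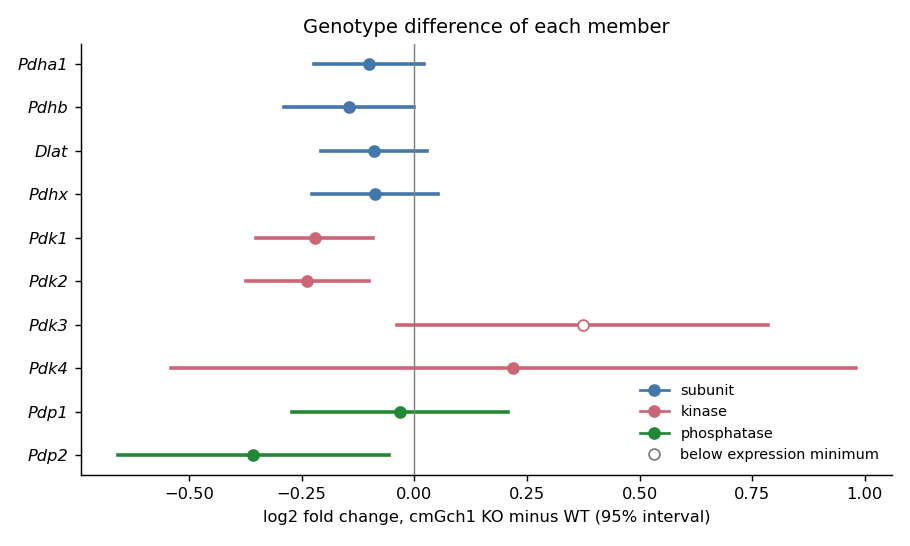
Log2 fold change of each member, cmGch1 KO minus WT, with its 95% interval from the edgeR fit on 12 libraries. Colours give the role, and the open circle marks Pdk3, taken from the fit without an expression minimum. The intervals of Pdk1, Pdk2 and Pdp2 lie below 0, and that of Pdk4 is the widest, from -0.54 to 0.98.

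Among the kinases, Pdk1 and Pdk2 were each about 15% lower in cmGch1 KO, and no cmGch1 KO library reached the lowest WT library. Pdk2 (ENSMUSG00000038967, chr11:95026258-95041354), whose promoter above holds the E-box letters, was at 474, 499, 462, 439, 511 and 510 cpm in WT replicates 1 to 6. In cmGch1 KO replicates 1 to 6 it was at 413, 365, 406, 424, 409.9 and 438.5 cpm. The highest cmGch1 KO library lay just under the lowest WT library (438.8 cpm), and the lowest of all was cmGch1 KO replicate 2. The fit put cmGch1 KO at 84.9% of WT, a log2 fold change of -0.24 (SE 0.064, 95% interval -0.37 to -0.10). The edgeR test gave an unadjusted p of 0.00224 and an adjusted p of 0.115. An antisense transcript within Pdk2, Gm11513, shares no exon with it and had at most 3 counts.

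Pdk1 (ENSMUSG00000006494, chr2:71873224-71903858) was at 224, 241, 232, 223, 249 and 248 cpm in WT replicates 1 to 6. In cmGch1 KO replicates 1 to 6 it was at 209.8, 187, 194.8, 222, 206 and 194.8 cpm. Again the groups met without overlapping, with cmGch1 KO replicate 4 at 221.8 cpm under WT replicate 4 at 222.7 cpm. The fit put cmGch1 KO at 85.8% of WT, a log2 fold change of -0.22 (SE 0.060, 95% interval -0.35 to -0.09), with an unadjusted p of 0.00253 and an adjusted p of 0.118 by edgeR.

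For both Pdk1 and Pdk2 the exact permutation test gave p = 0.00216, the smallest that the divisions of 12 libraries into 6 and 6 allow. A gene whose cmGch1 KO libraries were all lower was met in 0.802% of tested genes, and 1.07% had all cmGch1 KO libraries higher. Among the members 2 were of the first kind and 0 of the second. Without cmGch1 KO replicates 2 and 3, neither gene overlapped between genotypes, with exact permutation p-values of 0.00952 for Pdk1 and 0.0143 for Pdk2 (smallest possible 0.00476), while their adjusted p by edgeR was 0.504 and 0.457. With library size alone as the scaling, both genes overlapped between genotypes, at exact permutation p-values of 0.00866 and 0.0195 and log2 fold changes of -0.15 and -0.16. DESeq2 called both lower, with adjusted p-values of 0.0078 for Pdk1 and 0.00813 for Pdk2. The 2 kinases also varied together within genotype: over the 12 libraries, after the mean of each genotype was taken out, r was 0.69 and rho 0.73 (r = 0.60 without the 2 libraries farthest from the median of Pdk1). The libraries share their depth and scaling for both genes, so this is a description.

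Pdk4 (ENSMUSG00000019577, chr6:5483351-5496309) varied widely between libraries of each genotype, and a difference between genotypes was not detectable beside that spread. It was at 365, 627, 599.9, 838, 259 and 589 cpm in WT replicates 1 to 6. In cmGch1 KO replicates 1 to 6 it was at 316, 808, 697, 1053, 208 and 733 cpm. From lowest to highest, the replicates ran 5, 1, 6, 3, 2, 4 in WT and 5, 1, 3, 6, 2, 4 in cmGch1 KO. The cmGch1 KO group held both the lowest and the highest library of all. The span from lowest to highest was 3.24-fold in WT and 5.07-fold in cmGch1 KO, against 1.15-fold and 1.23-fold for Pdhb. Its log2 fold change was 0.22 (SE 0.354, 95% interval -0.54 to 0.98), with an adjusted p of 0.904 by edgeR and an exact permutation p of 0.556. Leaving out each library in turn moved it between 0.02 and 0.40.

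Pdk3 (ENSMUSG00000035232, chrX:93764607-93832201) was low in these libraries, with 46 to 78 counts per library, and did not pass the expression minimum. It ranged from 1.52 to 2.52 cpm in WT with a median of 1.70, and from 1.88 to 3.39 cpm in cmGch1 KO with a median of 2.16. The 2 highest libraries were cmGch1 KO replicates 2 and 3, at 3.39 and 2.98 cpm, the libraries with high Xist, and Pdk3 is X-linked. In a fit without the minimum its log2 fold change was 0.37 (SE 0.197), with an adjusted p of 0.581 by edgeR and an exact permutation p of 0.0952. Without those 2 libraries the log2 fold change was 0.14 and the exact permutation p was 0.414.

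Per kilobase of exon, the order of the members in WT was Pdha1 (288 ± 9.21), Pdhb (162 ± 10.02), Pdk4 (156 ± 58.6), Pdk2 (153 ± 9.23), Dlat (109.9 ± 4.29), Pdhx (38.2 ± 2.54), Pdk1 (30.3 ± 1.48), Pdp1 (10.4 ± 1.13), Pdp2 (4.49 ± 0.916) and Pdk3 (0.719 ± 0.153). In this order Pdhb, Pdk4 and Pdk2 did not differ beyond their spread, and the spread of Pdk4 reached Dlat as well. In cmGch1 KO the order was the same except that Pdk4, at 181 ± 90.3, stood above Pdhb, at 147 ± 11.02. Pdk2 and Pdk4 thus made up most of the kinase RNA. Pdk2 held 46.1% ± 9.19 of the summed kinase level in WT and 41.0% ± 12.5 in cmGch1 KO. Pdk4 held 44.5% ± 10.9 and 50.4% ± 15.1, Pdk1 9.15% ± 1.68 and 8.26% ± 2.62, and Pdk3 0.214% ± 0.0395 and 0.288% ± 0.0694 (n = 6 each).

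The mix varied more between libraries than between genotypes. The share of Pdk4 ran from 27.5% in WT replicate 5 to 58.7% in WT replicate 4, and from 27.4% in cmGch1 KO replicate 5 to 64.7% in cmGch1 KO replicate 4. In libraries 1 and 5 of each genotype Pdk2 exceeded Pdk4, and in the other libraries Pdk4 exceeded Pdk2. The ratio of Pdk4 to Pdk2 was 1.04 ± 0.436 in WT and 1.41 ± 0.705 in cmGch1 KO, and overlapped. The summed kinases were at 339 ± 53.2 in WT and 338 ± 90.7 in cmGch1 KO, on the scale per kilobase.

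**Figure D3:**
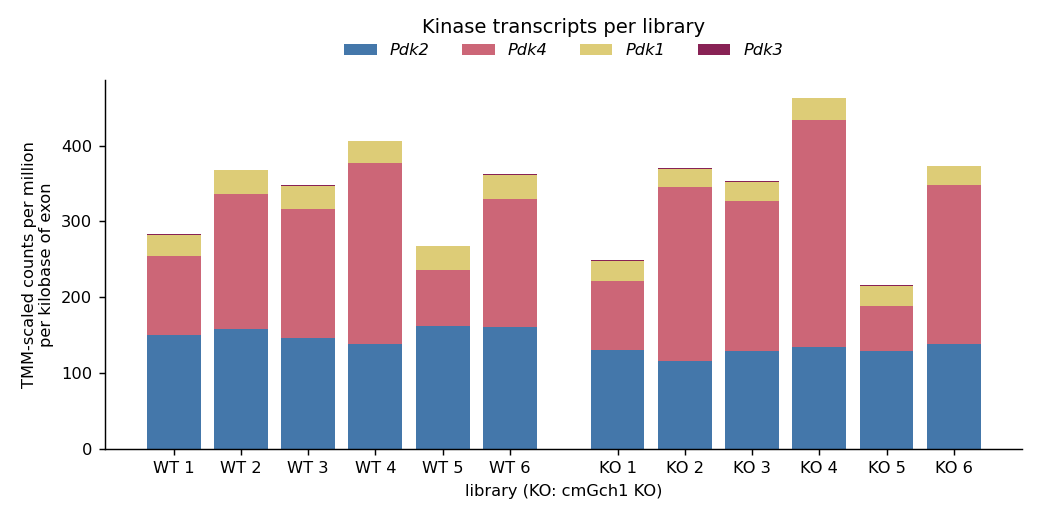
Stacked levels of the 4 kinases in each library, in TMM-scaled cpm per kilobase of exon. Bars are the 6 WT and 6 cmGch1 KO libraries and colours the kinases. Pdk2 ranges from 115 to 162, while Pdk4 ranges from 59.1 in cmGch1 KO replicate 5 to 300 in cmGch1 KO replicate 4.

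Per kilobase of exon, the phosphatases were lower than Pdk1, Pdk2 and Pdk4 and higher than Pdk3. Pdp1 (ENSMUSG00000049225, chr4:11958184-11966452), the calcium-stimulated isoform, ranged from 39.5 to 54.4 cpm in WT with a median of 47.7, and from 37.99 to 59.9 cpm in cmGch1 KO with a median of 44.4. The genotypes overlapped almost fully. Its log2 fold change was -0.03 (SE 0.112, 95% interval -0.27 to 0.21), with an adjusted p of 0.965 by edgeR and an exact permutation p of 0.814. Pdp1 was above 0 with library size alone (0.04), with a sex-linked covariate (0.04) and without cmGch1 KO replicates 2 and 3 (0.03), so it had no settled direction.

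Pdp2 (ENSMUSG00000048371, chr8:104591451-104599026), the isoform that does not depend on calcium, had the largest fall of the members in log2 terms. It was at 21.1, 34.7, 28.8, 23.96, 22.1 and 22.7 cpm in WT replicates 1 to 6. In cmGch1 KO replicates 1 to 6 it was at 16.7, 16.6, 26.2, 20.7, 18.2 and 21.3 cpm. Replicates 3 and 6 of cmGch1 KO reached into the WT range, and the other 4 lay below the lowest WT library. The log2 fold change was -0.36 (SE 0.141, 95% interval -0.66 to -0.06), with an unadjusted p of 0.0236 and an adjusted p of 0.314 by edgeR, and the exact permutation p was 0.0498. Without cmGch1 KO replicates 2 and 3 the exact permutation p was 0.0429, and with library size alone it was 0.145. Pdp1 held 69.9% ± 4.84 of the summed phosphatase level in WT and 74.2% ± 4.73 in cmGch1 KO, and the kinases together stood at 23.0 ± 4.51 and 25.1 ± 7.60 times the phosphatases.

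Because Pdk4 varied so much, the genes that varied most like it were sought among the 11224 other tested genes, with the mean of each genotype taken out. Among the 5 highest over the 12 libraries were Tmem100 (r = 0.90, rho = 0.81), Adora1 (r = 0.89, rho = 0.90), the adenosine A1 receptor, Ucp3 (r = 0.89, rho = 0.87), a mitochondrial carrier induced by PPAR activators, and Cdc25b (r = 0.89, rho = 0.90), a cell cycle phosphatase. Within WT alone their r lay between 0.81 and 0.91, and within cmGch1 KO between 0.89 and 0.95. Without the 2 libraries farthest from the median of Pdk4, r lay between 0.75 and 0.91. They were chosen as the top of 11224 genes, so these values describe the choice, and the points share library depth and scaling. Same-numbered libraries of WT and cmGch1 KO also ran in nearly the same order for Pdk4. The 12 points may therefore not be independent, here and in the correlations below. None of the 4 genes was called between genotypes.

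**Figure D4:**
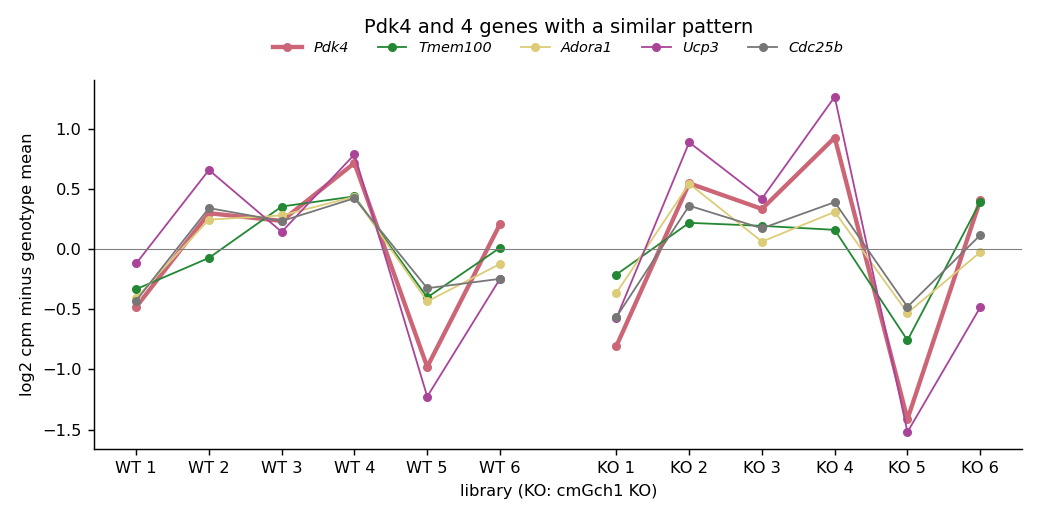
Log2 cpm minus the mean of the genotype, by library, for Pdk4 (thick line) and 4 of the genes most like it. In both genotypes Pdk4 peaks in replicate 4 and is lowest in replicate 5, and each of the 4 other genes lies below its genotype mean in replicates 1 and 5.

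Clock genes and PPAR targets were set against Pdk4 in the same way. Of 13 tested clock genes 5 had an r over 0.5 with Pdk4, which is 38.5% against 6.28% of all tested genes, and 2 had an r under -0.5, which is 15.4% against 5.87%. The genes named here were chosen after their values were seen. Nr1d1 and Dbp, which peak together in the daily cycle, followed Pdk4 (r = 0.73, rho = 0.74 and r = 0.71, rho = 0.76), as did Per2 (r = 0.58, rho = 0.62). Arntl and Cry1, which peak at the opposite time or later, ran against it (r = -0.69, rho = -0.73 and r = -0.82, rho = -0.83). Without the 2 libraries farthest from the median of Pdk4, these were 0.73, 0.61, 0.74, -0.61 and -0.67. The time of day at which hearts were collected was not in the labels, and its part in the spread of Pdk4 was not tested.

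Of 20 PPAR targets 6 had an r over 0.5 with Pdk4, which is 30% against 6.28% of all tested genes. Ucp3 was highest, followed by Plin2 (r = 0.81, rho = 0.82), a lipid droplet coat protein, Cpt1a (r = 0.68, rho = 0.68), which starts fatty acid import into mitochondria, and Acot1 (r = 0.66, rho = 0.79), an acyl-CoA thioesterase. Without the 2 libraries farthest from the median of Pdk4 these last 3 were at 0.66, 0.86 and 0.40. Acot2 (r = 0.54, rho = 0.45) and Angptl4 (r = 0.53, rho = 0.34) were also over 0.5, and without those libraries were at 0.70 and -0.21. The median r over the list was 0.23, beside -0.02 over all tested genes, and it was 0.15 without the 2 farthest libraries. Acadm, the medium-chain acyl-CoA dehydrogenase, was the only 1 with an r under -0.5 (r = -0.51, rho = -0.41), which is 5% against 5.87% of all tested genes. Of the 13 regulators known to act on Pdk4, 1 had an r over 0.5 (Ppard, r = 0.50, rho = 0.34), which is 7.69% against 6.28% of all tested genes. Under -0.5 there was 1 (Nr3c1, r = -0.51, rho = -0.61), which is 7.69% against 5.87%, and the median was 0.03. The median and Nr3c1 rested on the 2 farthest libraries: without them the median over the 13 was 0.43 and Nr3c1 was at -0.15. Ppargc1b, at 0.41 over all libraries, was then at 0.76, while Ppard stayed at 0.53.

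The pattern of Pdk2 was different. The 5 tested genes nearest to it were A630072M18Rik, Wipi1, Fem1c, Apaf1 and Osbpl8, with r between 0.90 and 0.92 and rho between 0.76 and 0.93. For Pdk2, 19.0% of all tested genes had an r over 0.5, against 6.28% for Pdk4, so a high r with Pdk2 was common. Markers of other tissue also varied with it. All 4 atrial markers (Myl4, Myl7, Sln and Nppa) had an r under -0.5 with Pdk2, against 20.05% of all tested genes, with a median of -0.59, and of -0.73 without the 2 farthest libraries. Of the 5 endothelial markers 4 had an r over 0.5, with a median of 0.64, and of 0.47 without those libraries. Their summed levels ranged from 74.7 to 548 cpm in WT and from 247 to 746 cpm in cmGch1 KO for the atrial markers, and from 581 to 776 and from 672 to 802 cpm for the endothelial markers. The 5 cardiomyocyte markers were mixed, with 2 over 0.5 (Ryr2 and Myh6) and 1 under -0.5 (Myl2). Their median was -0.41, and 0.17 without the 2 farthest libraries. Also under -0.5 were 2 of 5 macrophage markers (Cd68 and Lyz2) and 1 of 5 fibroblast markers (Tcf21). So were 1 of 5 smooth muscle and pericyte markers (Acta2) and 1 of 2 skeletal muscle markers (Acta1). The part of any of these cells in the level of Pdk2 was not tested. Between Pdk2 and Pdk4 themselves r was -0.25 and rho -0.21, and r turned to 0.14 without the 2 libraries farthest from the median of Pdk2. Of the 36 pairs of tested members, Pdha1 and Dlat had an r of 0.86 (rho 0.87) and Pdhb and Pdhx an r of 0.80 (rho 0.90). These pairs held without the 2 libraries farthest from the median of the first gene (0.89 and 0.72), while Pdhb and Dlat ran against each other with an r of -0.72 (rho -0.62), which weakened to -0.40.

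Around the complex, 13 genes for cofactors and shared subunits were listed and 10 were tested. None was called, and the median log2 fold change was -0.08. Dld, the lipoamide dehydrogenase shared with the sister complexes, averaged 561 ± 7.78 cpm in WT against 533 ± 22.9 cpm in the knockouts (log2 fold change -0.07, adjusted p = 0.69 by edgeR). Pdpr, a regulatory subunit of the phosphatase, had a log2 fold change of -0.30 (SE 0.099) and an adjusted p of 0.207 by edgeR. Slc19a2, a thiamine transporter, averaged 9.13 ± 1.04 cpm in WT against 11.5 ± 0.656 cpm in the knockouts, with a log2 fold change of 0.33 and an adjusted p of 0.104 by edgeR. Lipt1, a lipoyltransferase, had a log2 fold change of -0.20 and an adjusted p of 0.532 by edgeR. Pdha2, the testis form of the alpha chain, had 0 counts in every library, which allows up to 0.151 cpm in the shallowest.

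Genes that supply pyruvate or take it elsewhere included 2 that were called lower, where 0.445% of all tested genes were. Gpt2, the mitochondrial alanine aminotransferase, was at 48.4 ± 3.01 cpm in WT and dropped to 37.5 ± 2.32 (log2 fold change -0.37, SE 0.065, adjusted p = 0.0114 by edgeR). Gpt, the cytosolic alanine aminotransferase, was at 41.5 ± 1.38 cpm in WT and dropped to 33.5 ± 2.86 (log2 fold change -0.31, SE 0.067, adjusted p = 0.0417 by edgeR). Both enzymes interconvert pyruvate and alanine. For both all cmGch1 KO libraries were below all WT libraries, which held for 0.802% of all tested genes. Of the 14 tested genes of the list 12 had a log2 fold change below 0, against 53.3% of all tested genes, with a median of -0.17. At an unadjusted p under 0.05 by edgeR 6 were lower and 2 higher, against 4.51% and 7.01% of all tested genes. Ldhd, which oxidises D-lactate, was at -0.29 (adjusted p = 0.0728) and Me3, a mitochondrial malic enzyme, at -0.27 (adjusted p = 0.167), while Me2 was at 0.33 (adjusted p = 0.191) and the lactate carrier Slc16a1 at 0.18 (adjusted p = 0.282), all by edgeR.

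The sister 2-oxoacid dehydrogenases are built on the same plan and share Dld. All 10 tested genes of these complexes and their regulators had a log2 fold change below 0, against 53.3% of all tested genes, with a median of -0.27. At an unadjusted p under 0.05 by edgeR 5 were lower, against 4.51%, and 1 was called lower, against 0.445%. The 10 include Ogdhl (-1.44, adjusted p = 0.69 by edgeR), which ranged from 2.65 to 126 cpm in WT. They also include Mrps36 (-0.03, adjusted p = 0.978 by edgeR). Bckdhb, the beta chain of the branched-chain enzyme, was called lower, from 56.3 ± 3.15 to 40.9 ± 4.60 cpm (log2 fold change -0.46, SE 0.078, adjusted p = 0.0086 by edgeR). Bckdha, its alpha chain, was at -0.39 (adjusted p = 0.0795), and Dbt, its core, at -0.35 (adjusted p = 0.124 by edgeR). Dlst, the core of the 2-oxoglutarate enzyme, was at -0.13 (adjusted p = 0.308) and Ogdh, its decarboxylase, at -0.20 (adjusted p = 0.317 by edgeR). As with Pdk1 and Pdk2, Bckdhb and Dlst had all cmGch1 KO libraries below all WT libraries, which held for 0.802% of all tested genes. Whether the branched-chain genes differed from the pyruvate dehydrogenase subunits in their fold change was not tested.

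**Figure D5:**
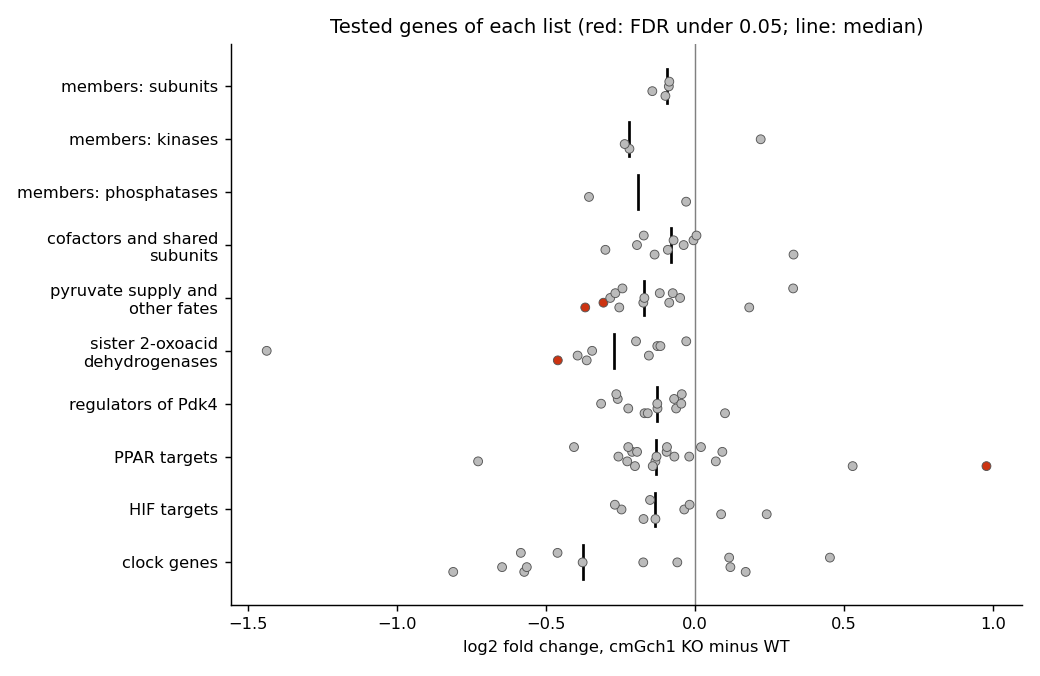
Log2 fold change, cmGch1 KO minus WT, of each tested gene of the member groups and of 7 related lists. Points are genes, red points passed an FDR of 0.05 and vertical lines are medians. The called genes are Gpt2 and Gpt, Bckdhb, and Ucp2 at 0.98 on the log2 scale.

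None of the 13 regulators known to act on Pdk4 was called, with a median log2 fold change of -0.13. The 4 with the smallest p were Rxra (-0.17, adjusted p = 0.433), Lpin1 (-0.22, adjusted p = 0.454), Foxo3 (-0.32, adjusted p = 0.553) and Ppargc1a (-0.26, adjusted p = 0.606), by edgeR. Among 20 PPAR targets, the list to which Pdk4 also belongs by background knowledge, Ucp2, a mitochondrial carrier protein, rose from 42.6 ± 7.76 to 83.9 ± 19.4 cpm. Its log2 fold change was 0.98 (SE 0.153, adjusted p = 0.00612 by edgeR). The median of the list was -0.13, and 4 others were lower at an unadjusted p under 0.05 by edgeR, against 4.51% of all tested genes. These were Acot1 (-0.73, adjusted p = 0.0644), Decr1 (-0.26, adjusted p = 0.218), Acadm (-0.21, adjusted p = 0.248) and Slc25a20 (-0.22, adjusted p = 0.428), by edgeR.

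Of 9 tested HIF targets other than Pdk1 none was called, with a median of -0.13. Egln1, an oxygen-sensing prolyl hydroxylase, was at -0.17 (adjusted p = 0.207), the glucose transporter Slc2a1 at 0.24 (adjusted p = 0.395), hexokinase Hk2 at -0.25 (adjusted p = 0.474) and Vegfa at -0.27 (adjusted p = 0.62), by edgeR. Egln1 also had all cmGch1 KO libraries below all WT libraries, which held for 0.802% of all tested genes. Of 13 tested clock genes none was called, with a median of -0.38. Hlf (-0.57, adjusted p = 0.155) and Tef (-0.57, adjusted p = 0.187), output factors of the clock, came first by p, before Nr1d2 (-0.38, adjusted p = 0.495) and Npas2 (0.45, adjusted p = 0.54), by edgeR. Across libraries within genotype, the r of Hlf and Tef with Pdk4 was 0.06 and 0.04, and 0.45 and -0.04 without the 2 libraries farthest from the median of Pdk4.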

How the data were processed

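The authors deposited raw counts per Ensembl gene without normalization, and a second table of normalized log2 values from the same libraries, made by a tool not given in the sources used here. According to the methods, libraries were stranded and paired-end, and counts came from HISAT2, Picard and featureCounts. The submitters' processing notes name HISAT2, SAMtools and GRCm38. Which annotation and strand option featureCounts used is not given in the sources used here. Of the 26921 identifiers 26545 were found in GENCODE M21, which gave symbols, coordinates and exon lengths.

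Groups came from the labels. Genotypes were compared with edgeR 4.0.16 in R 4.3.3 (TMM, cpm over 3 in at least 6 libraries, quasi-likelihood test, Benjamini-Hochberg over 11225 genes, FDR 0.05), checked on simulated counts. For single members, an exact permutation test over all divisions into 6 and 6 was added, two-sided and unadjusted. Sums, shares and correlations are descriptions, the last computed from log2 cpm (2 added to each count). Alternatives used DESeq2 1.42.0, limma 3.58.1 on the deposited log2 values, and sva 3.50.0. The members and lists were chosen with earlier results of these data known. Genes named are the members, Gch1, in each list those called and up to 4 more with the smallest p, and the 5 genes most like Pdk4 and Pdk2. 1 gene of these is not reported here. Other named genes were chosen after their values were seen. Intervals cover the spread between libraries, and floors for a count of 0 (up to 3 counts) cover counting error only.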

Additional observations from a re-analysis of the deposited data

How the results depend on the processing

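No member was called by edgeR under any normalization, filter or left-out library tried, by limma on the deposited values, with a replicate block or with a sex-linked covariate. The exceptions were DESeq2's Wald test, with 2 members called lower, and 1 surrogate variable, with 3. The cause was not tested. All members but Pdp1 kept their direction in each alternative run for them; Pdk3 was not fitted under cpm over 3 in every library, DESeq2's Wald test or limma on the deposited values. Pdp1, at -0.03, turned to 0.04 with library size alone (0.0385) and with the sex-linked covariate (0.0409), to 0.03 without both libraries with high Xist (0.0319), and ranged from -0.121 to 0.0162 when each library was left out.

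Over all genes, 50 were lower and 76 higher. Library size alone gave 116 higher, DESeq2's Wald test 155 lower and 218 higher, the sex-linked covariate 24 lower and 41 higher, 1 surrogate variable 331 lower and 305 higher, and the absence of both libraries with high Xist 18 lower and 16 higher. Leaving out each library in turn gave 28 to 96 lower and 44 to 111 higher. The fewest calls came without WT replicate 3 (28 lower, 44 higher), with 29 lower and 44 higher without WT replicate 5, 33 lower without WT replicate 4, 48 higher without cmGch1 KO replicate 2, 44 higher without cmGch1 KO replicate 3, and 96 lower without cmGch1 KO replicate 1. Same-numbered libraries correlated at r from -0.13 to 0.68, with 3 of 6 pairs over 0.1. These were numbers 1, 5 and 6, at 0.68, 0.40 and 0.51. The labels do not say that the numbers pair animals, so they were not taken to do so, but the same-numbered libraries may share something. The replicate block gave 76 genes lower and 112 higher. In it Pdk4 was at 0.12, Pdk1 at -0.22 and Pdk2 at -0.24 (adjusted p by edgeR 0.629, 0.132 and 0.107). Of WT libraries 3 and of cmGch1 KO libraries 2 were closest to their own number. Depth limits Pdk3, with 46 to 78 counts per library.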
